A study of Rattus norvegicus with 8 samples.

Results

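The 10 genes described here encode enzymes of core glycolysis and lactate formation, measured in the adrenal glands of 7-day-old rat pups. They were chosen by name from the array's annotation, as the genes Hk1, Gpi, Pfkp, Pfkl, Aldoa, Tpi1, Pgk1, Pgam1, Eno1 and Ldha, and all probe sets annotated to one of them alone were taken. This gave 15 of the 15923 probe sets on the array, and the 10 genes stand among 10412 that had a probe set of their own. The hypoxic pups had been kept with their dams in 12% O2 from birth, and the normoxic pups in room air with dams fed freely. Each group had 4 pools of 24 decapsulated glands, and every pool was read on 1 single-colour array. The labels name no strain, sex or genetic alteration for either group, and taking off the capsule leaves the inner cortex and the medulla. The pools are given as separate samples, but the sources used here do not say how litters were divided among them.

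Glycolysis splits glucose into pyruvate in the cytosol and yields ATP without oxygen. Lactate dehydrogenase then turns pyruvate into lactate, which regenerates the NAD+ that the pathway needs to go on. In many mammalian cells several of these genes are raised in low oxygen by the hypoxia-inducible factors, which bind DNA at a short core written ACGTG or GCGTG. The adrenal cortex makes steroids partly inside mitochondria, and the chromaffin cells of the medulla make catecholamines, so the gland holds cell types with different energy demands.

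Intensities are given per probe set in arbitrary units, after the authors had scaled every array to the same trimmed mean of 500.1. Array medians lay between 228.6 and 249.2, and correlations between arrays over probe sets lay between 0.966 and 0.981. Control sets for bacterial genes marked the background, with 5.4 as their median and 46.7 as their 95th percentile. Steroid genes of the cortex were bright in both groups: Cyp11a1 averaged 19635 in hypoxic and 18384 in normoxic pools. The chromaffin gene Th averaged 9573 in hypoxic and 8743 in normoxic pools, so both parts of the gland were represented. Hypoxic pool 1 had the lowest 5' over 3' ratio of beta-actin, a sign of RNA integrity, at 0.249, against 0.491 to 0.713 in the other hypoxic pools and 0.413 to 0.744 in the normoxic pools. The Gapdh ratio of that pool (0.618) lay inside the range of the other hypoxic pools, 0.556 to 0.659. So did its Hk1 ratio (0.202, against 0.0545 to 0.396). The Hk1 5' and 3' sets of that pool measured 9.1 and 45.1, both below the 95th percentile of the bacterial sets. Its Hk1 ratio therefore says little of RNA integrity. Results that rest on this pool are given with and without it. With 4 arrays per group, precision is limited by their number.

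The promoter windows of 4 genes are shown because these genes carry the results below: Ldha and Aldoa had hypoxic pools above all normoxic pools, Eno1 had the highest log2 difference of the 10, and Aldoc is the aldolase isozyme described with Aldoa. Each window runs from 250 bases before to 50 bases after an annotated transcript start, 5′ to 3′ in the direction of the gene, from RefSeq on build GRCr8. Capitals mark ACGTG or GCGTG read on either strand, so that they also appear as CACGT and CACGC. Aldoa has 3 such windows and Eno1 has 2, and the one that holds ACGTG is given for each.
Ldha, chr1:106507842-106508141, plus strand: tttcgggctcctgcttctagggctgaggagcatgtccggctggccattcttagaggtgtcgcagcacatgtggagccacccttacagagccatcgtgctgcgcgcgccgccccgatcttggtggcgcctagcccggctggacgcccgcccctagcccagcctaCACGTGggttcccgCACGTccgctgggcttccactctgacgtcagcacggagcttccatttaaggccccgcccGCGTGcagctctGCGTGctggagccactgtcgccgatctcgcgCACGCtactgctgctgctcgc
Aldoa, chr1:190836728-190837027, minus strand: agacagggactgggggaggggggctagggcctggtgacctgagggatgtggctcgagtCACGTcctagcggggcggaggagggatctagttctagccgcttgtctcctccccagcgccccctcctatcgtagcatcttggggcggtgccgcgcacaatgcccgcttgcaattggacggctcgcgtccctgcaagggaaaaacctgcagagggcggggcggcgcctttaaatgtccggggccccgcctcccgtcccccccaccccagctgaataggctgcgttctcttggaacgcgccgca
Eno1, chr5:166003111-166003410, plus strand: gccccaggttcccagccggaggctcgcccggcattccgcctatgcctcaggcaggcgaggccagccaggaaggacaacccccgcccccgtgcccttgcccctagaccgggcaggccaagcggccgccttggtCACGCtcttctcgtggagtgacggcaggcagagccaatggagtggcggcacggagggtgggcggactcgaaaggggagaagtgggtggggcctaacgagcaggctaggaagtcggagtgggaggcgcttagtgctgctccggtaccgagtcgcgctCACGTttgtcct
Aldoc, chr10:63715294-63715593, plus strand: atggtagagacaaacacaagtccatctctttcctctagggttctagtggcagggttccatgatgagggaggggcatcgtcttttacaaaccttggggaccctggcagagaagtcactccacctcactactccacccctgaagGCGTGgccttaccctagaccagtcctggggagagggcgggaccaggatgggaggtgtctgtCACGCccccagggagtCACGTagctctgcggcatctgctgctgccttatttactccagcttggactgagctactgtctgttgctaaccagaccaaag

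In the Ldha window, CACGTG lies 87 bases before the start and is read as ACGTG on both strands, and a further CACGT lies 73 bases before it. Counted per strand, the window holds 3 matches to ACGTG and 3 to GCGTG. Of all 33469 windows in the table, 1.69% hold 3 or more matches to ACGTG counted this way. The CACGT of Aldoa lies 192 bases before the last of its 3 starts, that of Eno1 38 bases after its second start, and that of Aldoc 31 bases before its start. Over the glycolytic set, 9 of the 10 genes had a window in the table, with 13 windows in all. ACGTG was found in 6 of the 13 windows, 1 for each of 6 genes: Hk1, Gpi, Aldoa, Pgam1, Eno1 and Ldha. Of all windows, 19.3% hold it. GCGTG was found in 6 of the 13 windows, from 5 genes, against 29.7% of all windows. Tpi1 held neither motif in its window, while Pfkp and Pfkl each held GCGTG at 2 places and no ACGTG. These are matches of letters in short windows and say nothing of binding.

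Hypoxic and normoxic pools were compared on log2(intensity + 16) over the 11106 probe sets bright enough to test (a mean signal of about 95.2 or more), with limma p-values adjusted over all of them. Of the glycolytic probe sets, 11 of 15 were among them, with each of the 10 genes having at least 1. At the brightest probe set of each gene, all 10 genes had a log2 difference above 0 (hypoxic minus normoxic), from 0.09 for Pgam1 to 0.55 for Eno1, with a median of 0.28. The median over all named genes tested was -0.01, and 47.5% of them had a difference above 0. In limma 0 of the 10 passed an adjusted p of 0.05, where 18 of 8011 named genes did (0.225%). Of the 10, 4 had an unadjusted p under 0.05 and were higher in hypoxic pools, namely Ldha, Aldoa, Eno1 and Pfkp, where 4.47% of named genes did so. The 10 genes were picked with earlier results of these data known, so these counts describe the set and are no test of it. In pooled tissue, more cells of a kind and more RNA per cell cannot be told apart.

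**Figure D1:**
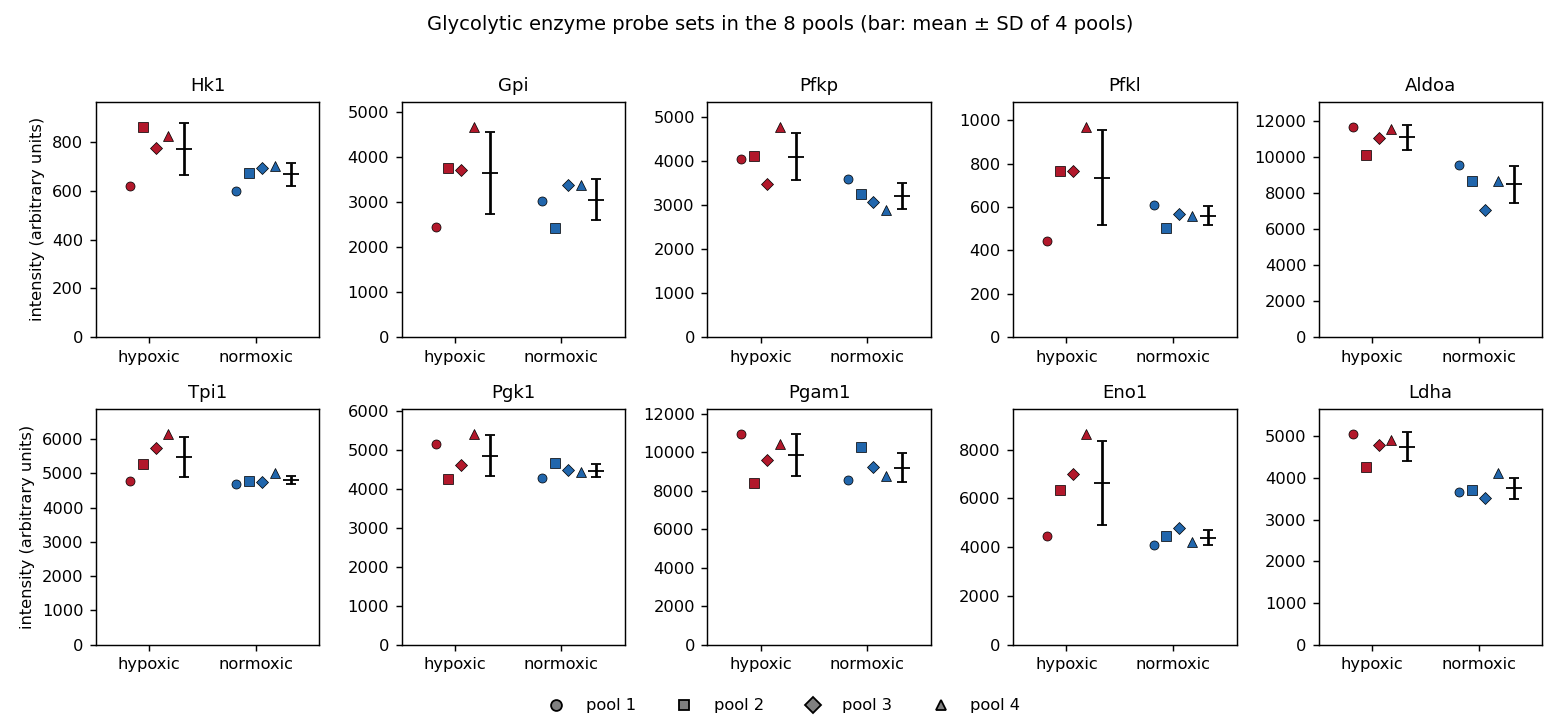
Intensity (arbitrary units, axis from 0) of the brightest probe set of each of the 10 enzymes in the 4 hypoxic pools (red, left) and the 4 normoxic pools (blue, right), 1 symbol per pool, with the mean and SD of 4 pools as a black bar. For Aldoa and Ldha every hypoxic pool lies above every normoxic pool, while hypoxic pool 1 (circle) is the lowest hypoxic pool for Hk1, Gpi, Pfkl, Tpi1 and Eno1.

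At the last step the groups were separate. Ldha, the lactate dehydrogenase subunit that predominates in muscle, measured 5048, 4261, 4784 and 4918 in hypoxic pools 1 to 4, against 3652, 3722, 3514 and 4112 in normoxic pools 1 to 4. All hypoxic values lay above all normoxic values, with hypoxic pool 2 and normoxic pool 4 nearest to each other. The means were 4753 ± 345 in hypoxic and 3750 ± 256 in normoxic pools (SD, n = 4 each). The log2 difference was 0.34 with a standard error of 0.09 and a 95% interval from 0.14 to 0.54 (limma, adjusted p = 0.244). Its difference kept to between 0.31 and 0.39 whichever single pool was left out.

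Aldoa, the aldolase that splits fructose 1,6-bisphosphate into triose phosphates, measured 11653, 10109, 11013 and 11516 in hypoxic pools, against 9545, 8629, 7026 and 8627 in normoxic pools. The groups did not overlap, and normoxic pool 3 was the lowest of the 8. Means were 11073 ± 699 in hypoxic and 8457 ± 1047 in normoxic pools (SD, n = 4 each), which is a log2 difference of 0.39 (95% interval 0.16 to 0.63, limma adjusted p = 0.245). Ldha and Aldoa were the 2 of the 10 genes whose hypoxic pools all lay above the normoxic pools, a pattern found for 3.03% of the named genes tested.

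Eno1, enolase 1, which forms phosphoenolpyruvate, had the highest log2 difference of the set. It measured 4455, 6358, 7014 and 8626 in hypoxic pools, against 4096, 4445, 4799 and 4228 in normoxic pools. Hypoxic pools 2, 3 and 4 lay well above the normoxic range and hypoxic pool 1 lay inside it. The log2 difference was 0.55 with a standard error of 0.16 and an interval from 0.19 to 0.91 (limma, adjusted p = 0.309). Without hypoxic pool 1 it was 0.73 and passed (limma, adjusted p = 0.0427), and without hypoxic pool 4 it was 0.41.

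Phosphofructokinase, the main control point of the pathway, is built from subunits encoded by Pfkp, Pfkl and Pfkm, named for platelet, liver and muscle. Pfkp measured 4039, 4105, 3471 and 4778 in hypoxic pools, against 3594, 3258, 3063 and 2890 in normoxic pools. Hypoxic pool 3, the lowest hypoxic pool, fell below normoxic pool 1, so the groups overlapped. Its log2 difference was 0.35, with an interval from 0.11 to 0.59 (limma, adjusted p = 0.351). Pfkl measured 441, 766, 766 and 970 in hypoxic pools, against 611, 505, 568 and 557 in normoxic pools. Here hypoxic pool 1 was the lowest of the 8 and the other hypoxic pools were above the whole normoxic range. The log2 difference of Pfkl was 0.33, close to that of Pfkp, but its interval from -0.09 to 0.75 was wider (limma, adjusted p = 0.675). Without hypoxic pool 1 it was 0.56, and without hypoxic pool 4 it was 0.19. The muscle subunit gene Pfkm, outside the set, differed by 0.07, with an interval from -0.15 to 0.28.

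The first steps showed smaller differences with intervals that included 0. Hk1, the hexokinase that phosphorylates glucose on entry, measured 622, 864, 777 and 827 in hypoxic pools, against 602, 674, 695 and 703 in normoxic pools. Its log2 difference was 0.20 (interval -0.06 to 0.45, limma, adjusted p = 0.692), with 3 of 4 hypoxic pools above every normoxic pool. Leaving out hypoxic pool 1 gave a difference of 0.30 (limma, adjusted p = 0.296). Gpi, glucose-6-phosphate isomerase, measured 2447, 3772, 3719 and 4678 in hypoxic pools, against 3033, 2427, 3379 and 3392 in normoxic pools. Hypoxic pool 1 and normoxic pool 2 stood far below the others of their groups. The log2 difference of Gpi was 0.23 (interval -0.15 to 0.62, limma adjusted p = 0.772), and single pools moved it from 0.10 (without hypoxic pool 4) and 0.12 (without normoxic pool 2) to 0.41 (without hypoxic pool 1).

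Hk1 was also covered by 3 rat control probe sets on the array, placed along the transcript, and these were dim. The set nearest the 3' end measured 45.1, 115.5, 144.3 and 132.3 in hypoxic pools, against 119.3, 96.2, 131.3 and 122.4 in normoxic pools. The groups overlapped, and the log2 difference was -0.17, opposite in sign to that of the brighter set. Hypoxic pool 1, at 45.1, was the lowest of the 8 and lay below the 95th percentile of the bacterial control sets. The other hypoxic pools ran from 115.5 to 144.3, against 96.2 to 131.3 in normoxic pools. The difference without hypoxic pool 1 was not computed for this set, so the sign may rest on that pool. When control sets were added to the fit, the 3' set had an interval from -0.77 to 0.42 (limma, adjusted p = 0.901). The middle set ran from 12.9 to 97.9 in hypoxic and from 17.5 to 93.5 in normoxic pools, and the 5' set from 6.3 to 57.2 in hypoxic and from 6.4 to 47.1 in normoxic pools. Most of these values lay below the 95th percentile of the bacterial control sets, and both sets were too dim to test.

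Tpi1, the triose phosphate isomerase, measured 4787, 5283, 5750 and 6142 in hypoxic pools, against 4704, 4775, 4757 and 4999 in normoxic pools. The normoxic pools were close together and 3 of 4 hypoxic pools lay above them all. Its log2 difference was 0.18 (interval -0.02 to 0.39, limma, adjusted p = 0.631), and 0.25 without hypoxic pool 1 (limma, adjusted p = 0.312). Pgk1, the phosphoglycerate kinase that makes ATP, was measured by 3 probe sets. The brightest gave 5141, 4243, 4596 and 5390 in hypoxic pools, against 4267, 4668, 4464 and 4425 in normoxic pools, a log2 difference of 0.11 (interval -0.09 to 0.32, limma adjusted p = 0.799). The next gave 3936, 4163, 3565 and 4416 in hypoxic pools, against 3407, 3627, 3925 and 3519 in normoxic pools, a log2 difference of 0.15 (interval -0.06 to 0.35). Both overlapped between groups, but they ordered the pools differently: hypoxic pool 2 was the lowest of the 8 on the brightest set and the second highest on the other. The remaining set lay between 0.5 and 10.9 in all 8 pools, at the level of the bacterial control sets, and was not tested.

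Pgam1, phosphoglycerate mutase, had the smallest difference of the set. It measured 10918, 8413, 9592 and 10408 in hypoxic pools, against 8531, 10259, 9197 and 8775 in normoxic pools. The groups were interleaved, with a hypoxic pool both highest and lowest of the 8. The log2 difference was 0.09 with an interval from -0.13 to 0.32 (limma, adjusted p = 0.859). The intervals of Pgk1 end at 0.32 and 0.35 on its 2 tested sets, whereas those of Gpi and Pfkl reach 0.62 and 0.75.

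**Figure D2:**
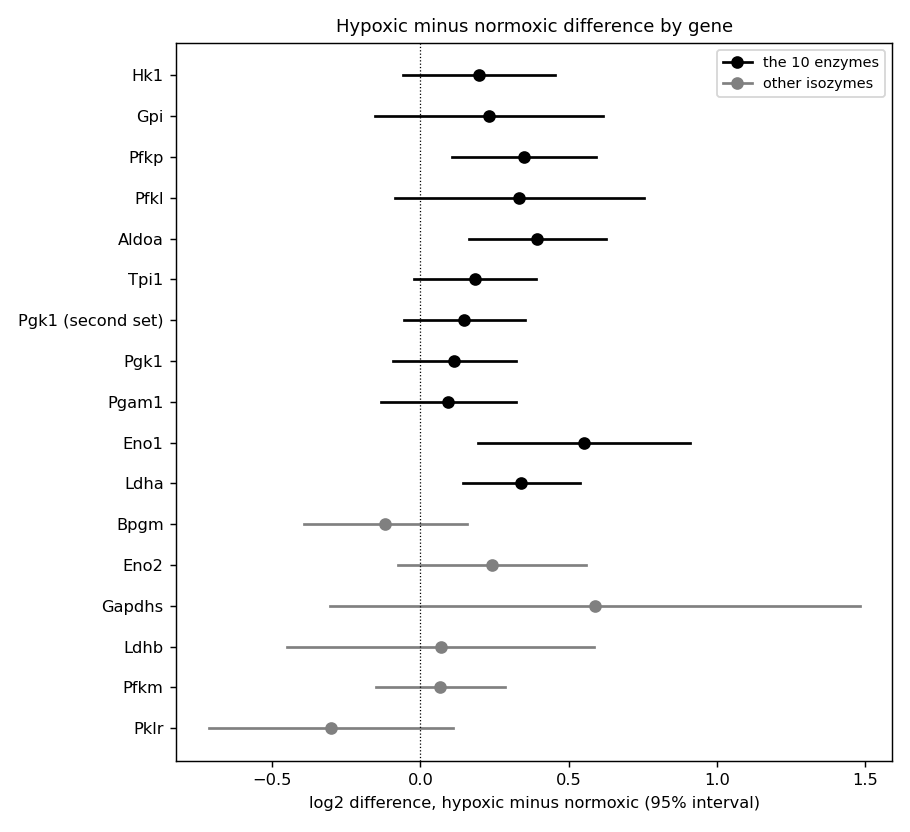
Log2 difference (hypoxic minus normoxic, points) with 95% intervals from limma (lines) at the 11 tested probe sets of the 10 enzymes (black) and at the other glycolytic isozymes bright enough to test (grey). Among the 10 enzymes, the intervals of Pfkp, Aldoa, Eno1 and Ldha lie above 0.

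The pools within the hypoxic group were not alike across these genes. Averaged over the 10 genes, the log2 deviation from each gene's mean over 8 pools was -0.04, 0.10, 0.15 and 0.35 in hypoxic pools 1 to 4, against -0.14, -0.15, -0.14 and -0.12 in normoxic pools 1 to 4. Hypoxic pool 4 was the highest of the 8 for 6 genes and above the mean for all 10. Hypoxic pool 1 was the lowest hypoxic pool for 5 genes, Hk1, Gpi, Pfkl, Tpi1 and Eno1, and the highest hypoxic pool for 3, Aldoa, Pgam1 and Ldha. Its distance from the mean of the other hypoxic pools ran from -0.89 on the log2 scale for Pfkl to 0.21 for Pgam1.

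**Figure D3:**
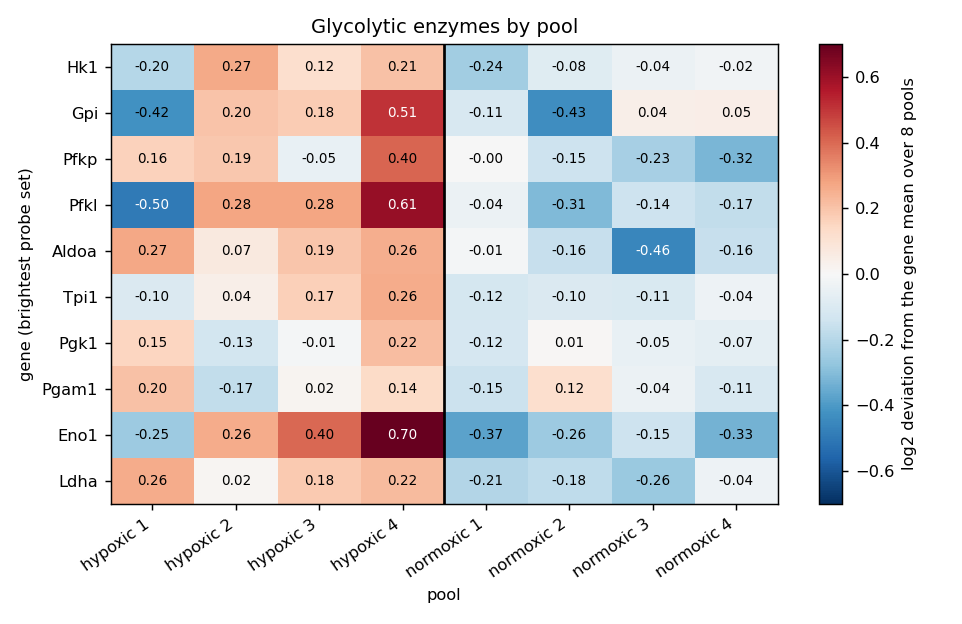
Log2 deviation of each enzyme's brightest probe set from its mean over the 8 pools (rows: genes in pathway order; columns: hypoxic pools 1 to 4, then normoxic pools 1 to 4; red above, blue below). Hypoxic pool 4 is above the mean for all 10 genes, and hypoxic pool 1 splits the genes, from -0.50 for Pfkl to 0.27 for Aldoa.

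With hypoxic pool 1 left out, 8 of the 10 genes were higher in hypoxic pools at an unadjusted p under 0.05, where 6.13% of named genes were, and the set's median log2 difference was 0.33. Eno1 was the 1 gene of the 10 past the adjusted threshold there, where 0.337% of named genes were. The beta-actin ratio as a covariate gave the same counts: 8 of the 10 genes at an unadjusted p under 0.05 (5.75% of named genes), and Eno1 at a log2 difference of 0.71 (limma, adjusted p = 0.0490, where 0.399% of named genes passed). Hypoxic pool 1 had the lowest beta-actin ratio, so that fit is not independent of the one without this pool. The ratio was 0.495 ± 0.190 in hypoxic and 0.607 ± 0.143 in normoxic pools (SD, n = 4 each, exact permutation p = 0.4, two-sided). With the Gapdh ratio as a covariate the counts were those of the fit without one, 4 of the 10 at an unadjusted p under 0.05 (3.74% of named genes were so and higher in hypoxic pools) and 0 past the adjusted threshold (0% of named genes), with Eno1 at adjusted p = 0.491 in limma. Whether RNA integrity had a part in the low values of hypoxic pool 1 was not tested. Without hypoxic pool 4 the set's median was 0.17, and Ldha, Aldoa, Eno1 and Pfkp still had an unadjusted p under 0.05.

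Aldoc, the aldolase isozyme known from brain, is not among the 10 genes but stood apart from Aldoa. It measured 209.9, 160.5, 98.2 and 159.2 in hypoxic pools, against 31.9, 40.4, 33.1 and 31.9 in normoxic pools. All hypoxic pools were above all normoxic pools, and the normoxic values lay below the 95th percentile of the bacterial control sets, at the edge of what the array could detect. Means were 157 ± 45.7 in hypoxic and 34.3 ± 4.09 in normoxic pools (SD, n = 4 each). Set against that percentile in place of the normoxic signal, the geometric mean of the hypoxic pools was 3.25-fold higher. That is a point estimate with no interval, and the lowest hypoxic pool measured 98.2. The brightness filter kept it out of the main test. With no filter the log2 difference of the measured signals was 1.74, which is no size of the change, since the normoxic signal was not above background. It had the lowest p of all 15866 probe sets in limma. Its adjusted p was 0.0575 there, and 0 probe sets passed in that fit, with 1199 at an unadjusted p under 0.05.

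**Figure D4:**
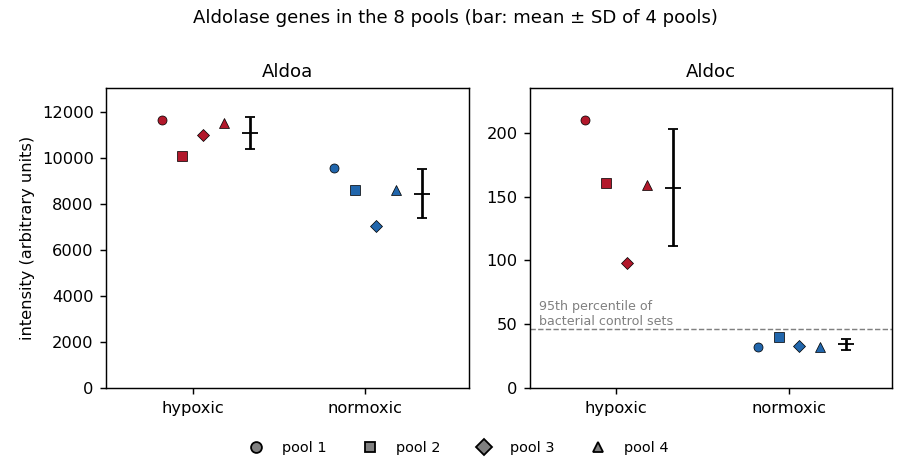
Intensity (arbitrary units, axes from 0, different scales) of Aldoa and Aldoc in the 4 hypoxic pools (red, left) and the 4 normoxic pools (blue, right), with the mean and SD of 4 pools as a black bar. The dashed line in the Aldoc panel is the 95th percentile of bacterial control probe sets (46.7), with all hypoxic pools above it and all normoxic pools below it.

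For 5 pairs of genes that serve the same step, the log2 ratio was taken within each pool, on the same scale with 16 added. The log2 ratio of Aldoa over Aldoc was lower in hypoxic pools, with a measured difference of -1.35 and no overlap between 4 hypoxic and 4 normoxic pools (exact permutation p = 0.0286, two-sided, the smallest this design can give, and 0.143 after adjustment over the 5 pairs). With Aldoc at background in normoxic pools this value is no size of the change, and the separation is the one already described for Aldoc. Ldha over Ldhb, the subunit that predominates in heart, differed by 0.27 ± 0.29 (SE, exact permutation p = 0.429, adjusted p = 0.536), and ran from 0.04 without normoxic pool 1 to 0.39 without normoxic pool 2. Ldhb itself varied within the groups, from 983 to 1731 in hypoxic and from 955 to 2047 in normoxic pools. Eno1 over the neuronal enolase gene Eno2 differed by 0.31 ± 0.20 (exact permutation p = 0.171, adjusted p = 0.286). Hk1 over Hk2, whose probe set was too dim for the main test, differed by 0.38 ± 0.20 (exact permutation p = 0.114, adjusted p = 0.286), and by 0.25 without hypoxic pool 4. Pfkp over Pfkl differed by 0.02 ± 0.23 (exact permutation p = 0.971, adjusted p = 0.971), and its sign turned without hypoxic pool 1, to -0.20.

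Gapdh, the enzyme between Tpi1 and Pgk1, had no ordinary probe set named for it alone but was covered by 3 rat control sets. The 3' set measured 7859, 8120, 8661 and 10238 in hypoxic pools, against 6589, 7222, 7836 and 7060 in normoxic pools. All hypoxic pools lay above all normoxic pools, hypoxic pool 1 by a narrow margin over normoxic pool 3, whereas the groups overlapped on the middle and 5' sets. With control sets in the fit its log2 difference was 0.28 (limma, adjusted p = 0.477), that of the middle set 0.36 (adjusted p = 0.405) and that of the 5' set 0.15 (adjusted p = 0.814). The pyruvate kinase gene Pkm, whose probe set is annotated to a pseudogene as well, was not analysed here.

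Lists of genes around the pathway were examined in the same fit. Of 16 other glycolytic enzymes and isozymes 6 were tested, with 4 higher and 2 lower in hypoxic pools and a median log2 difference of 0.07. Aldoc, too dim, and Gapdh, covered by control sets only, were not among the 6, so this median leaves out their higher hypoxic values. None of the 6 had an unadjusted p under 0.05 in limma and 0 passed the adjusted threshold. Those with the lowest p were Eno2 at 0.24, the liver and red cell pyruvate kinase gene Pklr at -0.30 and the sperm-type Gapdhs at 0.59, whose pools scattered from 87.5 to 181.5 in hypoxic and from 22.3 to 166.6 in normoxic pools. Of 7 tested regulators of flux 0 passed, 3 were above 0 and the median was -0.07. Among them were Pfkfb3 (-0.18) and Pfkfb2 (-0.17), which make and remove the activator of phosphofructokinase, and Pgm1 (0.12), which links glycogen to glucose 6-phosphate.

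The transporters and the branches that leave the pathway gave few differences. Of 6 tested transporters of glucose and lactate 0 passed, 1 was above 0 and the median was -0.05. The 1 was the glucose transporter gene Slc2a3, which measured 567, 588, 415 and 530 in hypoxic pools, against 367, 399, 357 and 386 in normoxic pools. Its groups did not overlap and its log2 difference was 0.45 (limma, adjusted p = 0.253), but a dimmer probe set of it differed by -0.23. Slc2a1 differed by -0.09 and the lactate carrier gene Slc16a1 by -0.05. Of 13 genes of pyruvate entry into mitochondria 0 passed, 6 were above 0 and the median was -0.04, with Mpc1 of the pyruvate carrier at -0.20, Pdk1, a kinase that switches off pyruvate dehydrogenase, at -0.22, and Pdha1, a subunit of that enzyme, at 0.15.

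Of 4 gluconeogenesis genes 0 passed and the median was -0.07, with Fbp1 at 0.32, Pck2 at -0.12 and Pck1 at -0.30. Of 6 genes of the pentose phosphate pathway, which branches from glucose 6-phosphate, 0 passed and the median was -0.04. Here Pgd, the second dehydrogenase of that pathway, measured 3058, 4320, 3793 and 4472 in hypoxic pools, against 2613, 2756, 3289 and 2948 in normoxic pools. Hypoxic pool 1 was again the lowest hypoxic pool and the only one inside the normoxic range. The log2 difference of Pgd was 0.42 (limma, adjusted p = 0.325), and 0.53 without hypoxic pool 1, while Rpia differed by -0.19 and Rpe by -0.11. A dimmer probe set of Rpia differed by 0.19. That the medians of these lists lay lower than that of the 10 glycolytic genes was not tested.

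**Figure D5:**
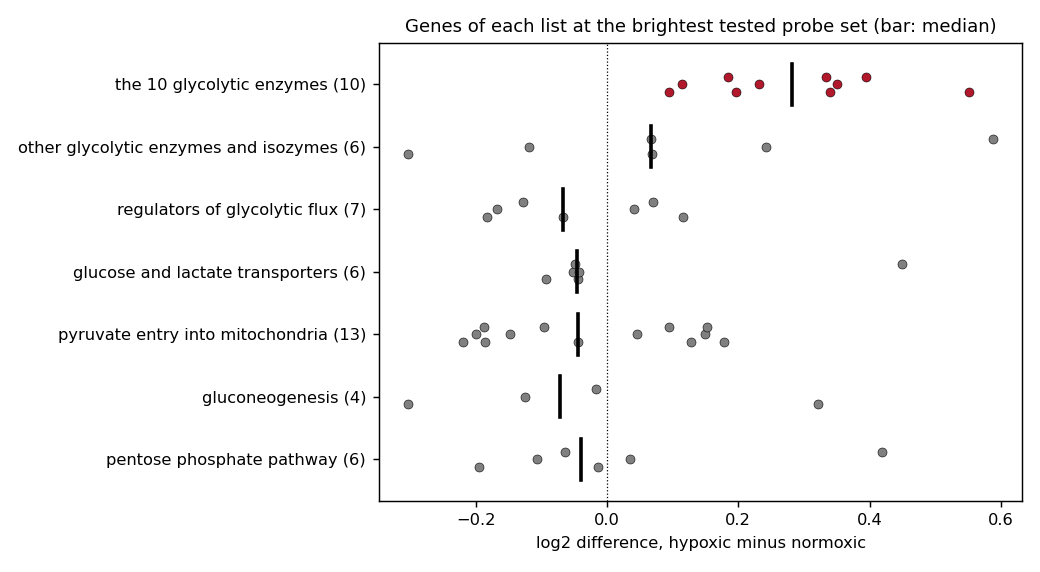
Log2 difference (hypoxic minus normoxic) of each gene at its brightest tested probe set, by list, with the number of genes tested in brackets and the median as a black bar. All 10 glycolytic enzymes lie above 0, while the medians of the other lists shown lie between -0.07 and 0.07. Aldoc and Gapdh were not in the main test and are not shown. Lists of cell type markers are not shown, and their medians ran from -0.23 (skeletal muscle) to 0.31 (erythroid).

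Markers of the cell types a gland can hold were set beside these values. The 10 tested chromaffin markers were all above 0, with a median log2 difference of 0.19. Of them, 5 had an unadjusted p under 0.05 in limma (4.47% of named genes were so and higher in hypoxic pools). For 2 the hypoxic pools all lay above the normoxic pools (3.03% of named genes). The vesicular monoamine transporter gene Slc18a2 passed the adjusted threshold (log2 0.98, limma adjusted p = 0.0318), followed by Ddc (0.36), Dbh (0.52) and Chga (0.34). A dimmer probe set of Slc18a2 differed by 0.61, with overlapping groups (limma, adjusted p = 0.399), and a dimmer one of Ddc by -0.06. The Slc18a2 call was lost with no filter, with no variance trend, with the Gapdh covariate and without any one pool other than hypoxic pool 1, with limma adjusted p reaching 0.118. The summed intensity of the chromaffin markers over 12 probe sets ran from 41469 to 57091 in hypoxic and from 35902 to 47952 in normoxic pools. Of 8 tested cortex markers 0 passed and 6 were above 0, with a median of 0.02, the lowest p falling to Nr5a1 (-0.27), Cyp11a1 (0.09) and Cyp11b1 (0.06). Their sum ran from 107426 to 151424 in hypoxic and from 105841 to 143572 in normoxic pools. Of 4 tested erythroid markers 0 passed and all 4 were above 0, with a median of 0.31, including Slc4a1 (0.65), Alas2 (0.42) and Hbb (0.20). Of the 4, 2 had an unadjusted p under 0.05 in limma, Slc4a1 and Alas2 (4.47% of named genes were so and higher in hypoxic pools). A dimmer probe set of Slc4a1 differed by -0.04. The sum of the erythroid markers ran from 19474 to 29577 in hypoxic and from 18702 to 21477 in normoxic pools. Most of that sum was Hbb, which averaged 20830 in hypoxic and 17909 in normoxic pools, so it says little of the other erythroid markers.

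The other marker lists had 0 genes past the threshold in limma. All 9 adipose markers were below 0, among them Ucp1 (-1.46), Cidea (-0.68) and Cfd (-0.64), and their sum ran from 4770 to 11359 in hypoxic and from 5727 to 14992 in normoxic pools. Skeletal muscle, where glycolytic genes are abundant, had weak signals, with 3 of its 11 measured genes bright enough to test. The sum over 11 sets ran from 600 to 799 in hypoxic and from 644 to 737 in normoxic pools, with Ckm at -0.27, Atp2a1 at -0.23 and Tnni2 at 0.08. Kidney and liver markers summed to between 882 and 3628 in hypoxic and between 858 and 2153 in normoxic pools, the highest being hypoxic pool 1, with Serpina1 at 0.44, Miox at -0.27 and Ttr at 0.09. For all of these lists the summed levels overlapped between groups, and 0 values of these probe sets were exactly 0. The part of cell composition in the glycolytic differences was not tested.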

How the data were processed

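The deposited table held linear intensity values of probe sets, 1 column per pool, and the sources used here do not name the software that summarised the probes. The values themselves show the scaling: the trimmed mean (2% at each end) of every array was 500.1, which hides any change common to most transcripts. Per the labels, cRNA was labelled with biotin, and RNA was checked on gels. Gene symbols came from the platform annotation, which can be old, and 12783 probe sets had 1 symbol. Probe sets with several symbols named no gene. Probe sets of genes with close copies or pseudogenes may also detect those.

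Values were raised to at least 1 and converted as log2(value + 16), on which folds of dim probe sets come out too small. The 57 control probe sets were left out, as were probe sets dimmer on average than the 30th percentile, a signal of 95.2. This left 11106 probe sets and 8011 named genes. The test was limma's moderated test (version 3.58.1, lmFit and eBayes, variance trend on), run two-sided in R 4.3.3. P-values were adjusted by Benjamini-Hochberg over these probe sets, with 0.05 as the threshold. That fit called 20 probe sets (0.18%), with 960 at an unadjusted p under 0.05. The fit was tested on simulated data. Means and SDs are of intensities over 4 pools. Ratios of 5 gene pairs were compared by exact permutation tests. Tables and plots used Python 3.11.15, pandas 2.3.3 and matplotlib 3.10.9.

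Members, gene lists, pairs and tests were chosen with earlier results of these data known. Named besides the 10 genes were, from each list, those past the threshold and up to 3 more with the lowest p. Aldoc, Gapdh, Pfkm, Ldhb and Hk2 were named for the pairs, for their place in the pathway or after their values were seen. Motifs were searched in promoter windows from RefSeq (build GRCr8), matched by symbol and gene ID. Alternatives covered the offset, filter, variance trend, normalization, replicate block, integrity covariates, averaging of probe sets and each pool left out. The addition of rat control probe sets to the fit was chosen after seeing the data.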

Additional observations from a re-analysis of the deposited data

Results flagged for a closer look

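Aldoc lay outside the main test because of its low signal, and its hypoxic pools were all above its normoxic pools. The measured signals differed by 1.74 on the log2 scale, but the normoxic signal was not above background, so at least 3.25-fold is what can be stated. The 3' control probe set for Gapdh, also outside the test, had a log2 difference of 0.28, with the nearest pools of the groups at 7859 (hypoxic) and 7836 (normoxic), while the other Gapdh sets overlapped between groups.

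Single pools stood apart from the other 3 of their group at 5 of 68 combinations of probe set and group examined, where chance gives about 1 in 20. For the middle Hk1 control set, normoxic pool 3 measured 93.5, against 17.5 to 25.5 in the other normoxic pools. For Aldoc, normoxic pool 2 measured 40.4, against 31.9 to 33.1 in the others. Hypoxic pool 1 measured 1624.7 for Mpc1, against 1180 to 1206.6 in the other hypoxic pools, and 142.3 for Pfkfb2, against 203.3 to 215.4. Without hypoxic pool 1 the log2 difference was -0.31 for Mpc1 and -0.04 for Pfkfb2. Hypoxic pool 4 measured 2428 for Pdha1, against 2667.6 to 2716.9 in the other hypoxic pools.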

How the results depend on the processing

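In each of the alternatives run, all 10 genes kept a log2 difference above 0, and Ldha, Aldoa, Eno1 and Pfkp kept an unadjusted p under 0.05 in limma. The number of the 10 past the adjusted threshold was 0, except for 1, Eno1, when the beta-actin ratio was a covariate or hypoxic pool 1 was left out (range 0 to 1 with single pools left out). The number of probe sets called was 0 with no filter, 0 with no variance trend, 0 with the Gapdh ratio as a covariate and 37 with the beta-actin ratio. With single pools left out it ran from 0 (for normoxic pools 1, 2 and 3 and hypoxic pools 2 and 3) to 31 (for hypoxic pool 1). It was 18 with the replicate block, and the block left the number of the 10 genes called at 0. The deviations of same-numbered pools had correlations of 0.32, 0.00, 0.19 and -0.04. These few values cannot settle whether the numbers pair the pools.

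The Pfkp over Pfkl difference ran from -0.20 (without hypoxic pool 1) to 0.13 (without hypoxic pool 3) and turned in sign without normoxic pool 3 or 4 as well. Among other genes named, the log2 difference turned in sign for Slc16a1 (0.03) and Tnni2 (-0.017) with the Gapdh ratio and for Nr5a1 (0.15) and Ttr (-0.066) with the beta-actin ratio. With single pools left out it ran from -0.19 to 0.0012 for Pck2, from -0.78 to 0.11 for Pck1, from -0.22 to 0.0082 for Rpe, from -0.46 to 0.15 for Nr5a1, from -0.0085 to 0.19 for Cyp11a1, from -0.070 to 0.21 for Cyp11b1 and from -0.16 to 0.25 for Ttr. The cause of these turns was not tested. Low signal limits Aldoc, Hk2 and the Hk1 control sets, and 4 pools per group limit the rest.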
